A study of Spirodela polyrhiza with 16 samples.

Results

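The core circadian clock genes of the giant duckweed Spirodela polyrhiza are described here from fronds and roots of plants with and without phosphate. They are 10 of the 20389 gene models in the expression table, given by identifier and named for their closest Swiss-Prot homolog. They comprise 2 homologs of LATE ELONGATED HYPOCOTYL (LHY), 1 of REVEILLE 1, 2 neighbouring models of GIGANTEA, 2 of the pseudo-response regulator PRR95, 1 of PRR73, 1 of ELF4-LIKE 3 and 1 of ELF4-LIKE 4. They were selected on these names and on their FPKM levels in the 4 groups and in single libraries, which were already known. Their own values and differences are therefore given as descriptions without p-values, and tests are given for other clock-related genes.

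Clone 9509 of this duckweed, an aquatic plant made up of flat floating fronds and simple roots, was grown in flasks of full medium (100 ml of medium in each 250 ml flask). On day 10 the medium was replaced, by medium without KH2PO4 for the no-phosphate plants and by full medium for the controls. At harvest on day 11 each flask's plants were parted into fronds and roots, and the pooled tissue of 1 flask made 1 replicate. The 16 libraries were 4 of no-phosphate fronds, 4 of control fronds, 4 of no-phosphate roots and 4 of control roots. Each is named by its tissue and the number it carries in the table, 1 to 4 for controls and 5 to 8 for no phosphate. The labels give no hour of harvest and no light regime, so the point of the daily cycle at which a flask was sampled is not known. Each pool held whole fronds or whole roots, and fewer cells of a type and less RNA per cell cannot be told apart.

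In Arabidopsis, where most of this network was worked out, the clock is a loop of transcription factors that repress each other in turn over the day. Myb-type factors such as LHY accumulate around dawn and repress genes that act later in the day. Pseudo-response regulators (PRR proteins) follow in sequence and repress LHY, GIGANTEA acts in the afternoon on the stability of clock proteins, and ELF4 joins ELF3 and LUX in an evening complex. Because these transcripts rise and fall every day, their levels depend on the time of sampling.

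Levels are given in FPKM, a read density corrected for gene length and library depth, which allow levels to be compared between genes. Differences are log2 changes of log2(FPKM + 1) with their standard error (SE) from a limma fit over all 16 libraries, a scale that understates the change of low genes. A gene was called when its p, adjusted by Benjamini-Hochberg over the 16598 genes tested, was under 0.05. All 10 clock genes passed the filter on low values, an average of 0.5 FPKM or more across the libraries. Library depth was 6325297 to 12437151 reads. Of 16 frond marker genes (chlorophyll-binding and Rubisco small-subunit models, matched by name or domain), 13 were called higher in fronds of control plants. Among the 16, Sp04g00558 and Sp15g00230 carry a chlorophyll-binding domain but are closest to other proteins. The homolog of Casparian strip membrane protein 1, a protein of the root endodermis, was at 22.4 to 67.8 FPKM in the root libraries and at 1.73 to 3.85 FPKM in the frond libraries. Of the 3 root marker genes found by name, 1 was called higher in roots of control plants.

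In fronds without phosphate, the second LHY homolog and REVEILLE 1 were higher than in control fronds, and GIGANTEA, PRR95, PRR73 and ELF4-LIKE 3 were lower. The first LHY homolog, the most abundant of the 10 transcripts, differed little. By limma 2 of the 10 genes passed the threshold upwards and 5 downwards, where 4.41% of all tested genes passed in either direction (2.11% upwards and 2.30% downwards). The count of 7 became 3 without no-phosphate frond library 5 or 6 or control frond library 2 or 4, and 4 without control frond library 1. For 9 of the 10, the 4 no-phosphate and 4 control frond libraries did not overlap (2 higher and 7 lower without phosphate), which was so for 19.1% of all tested genes (9.65% higher and 9.46% lower). The median log2 change of the 10 genes was -0.59, beside 0.01 over all tested genes. Since the choice of the genes used these values, nothing is read from these counts or from this median.

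**Figure D1:**
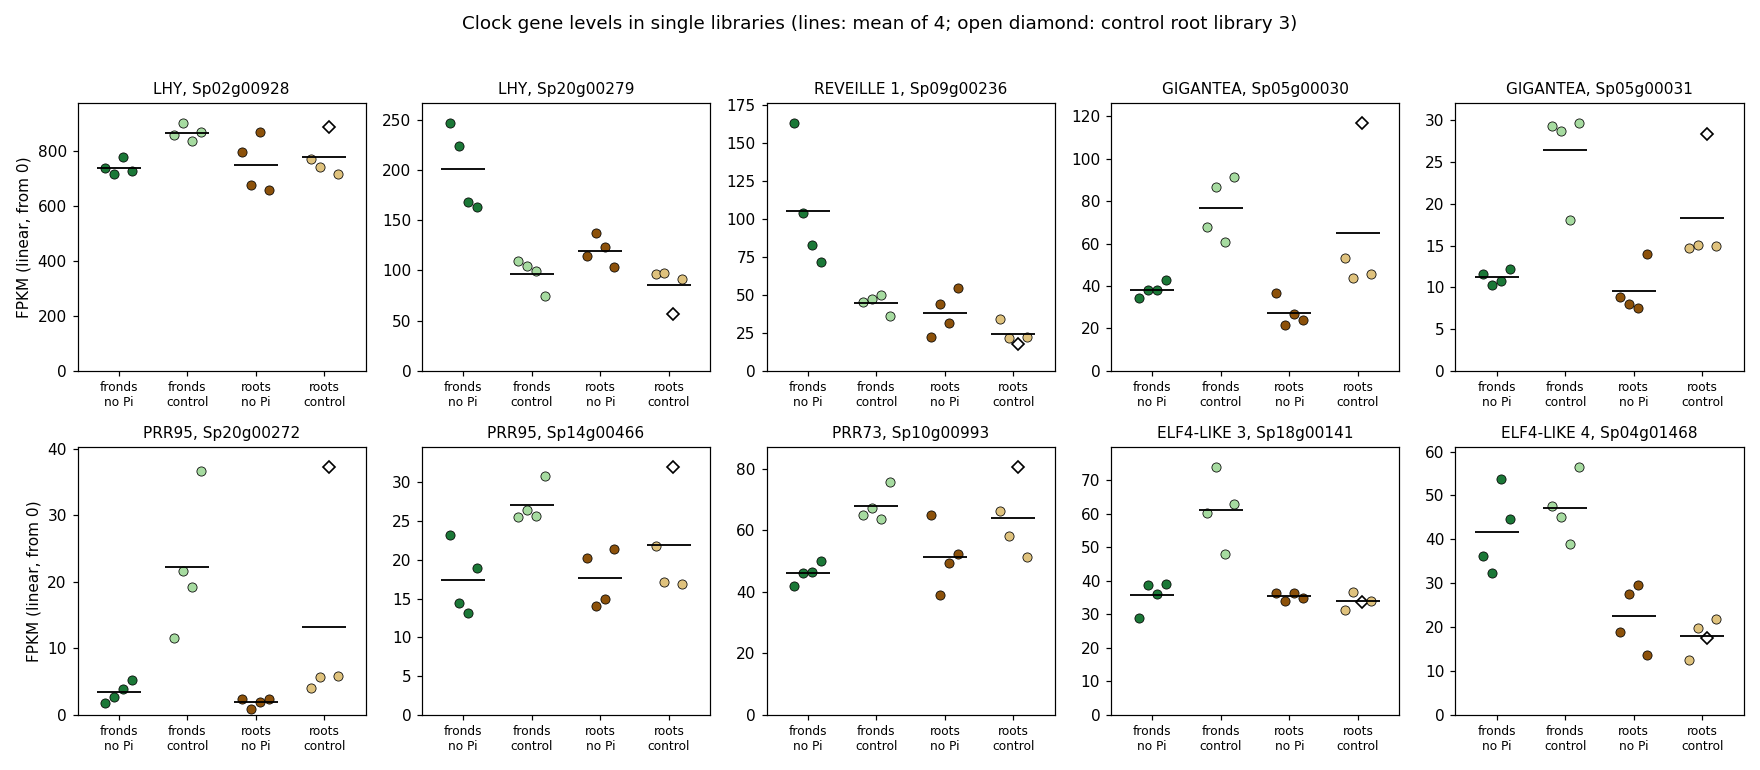
FPKM (linear axes from 0) of the 10 clock genes in each library, by tissue and medium, with the mean of each group of 4 as a line. In fronds the no-phosphate points of LHY Sp20g00279 and REVEILLE 1 lie above all control points and those of GIGANTEA, PRR95 and PRR73 below them, while control root library 3 (open diamond) stands apart at 37.3 FPKM for PRR95 Sp20g00272 and 117 FPKM for GIGANTEA Sp05g00030.

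The dawn-type Myb factors come first. Sp02g00928 (chromosome 2, 4726077 to 4733784) and Sp20g00279 (chromosome 20, 1609109 to 1615599) are both closest to LHY of Petunia hybrida and carry a Myb-like DNA-binding domain. Sp20g00279 had 247, 224, 168 and 163 FPKM in no-phosphate frond libraries 5 to 8, against 109, 104, 99.2 and 74.1 FPKM in control frond libraries 1 to 4. All 4 no-phosphate fronds were above all 4 controls, with a log2 change of 1.04 ± 0.19 (SE). In roots it had 114, 137, 123 and 103 FPKM in no-phosphate libraries 5 to 8, against 96.1, 96.9, 56.4 and 91.2 FPKM in control libraries 1 to 4. The root groups did not overlap either, and the log2 change was 0.51 ± 0.19 (SE).

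Sp02g00928 was several-fold more abundant and nearly level. It had 736, 715, 775 and 727 FPKM in no-phosphate fronds, against 857, 901, 834 and 869 FPKM in control fronds, a log2 change of -0.23 ± 0.10 (SE). The no-phosphate fronds were the lower group here, opposite to the other LHY homolog, and the groups did not overlap. Its root libraries overlapped, at 658 to 867 FPKM without phosphate and 715 to 885 FPKM in controls. Sp20g00279 therefore stood at 0.217 to 0.336 of the level of Sp02g00928 in no-phosphate fronds and at 0.0853 to 0.127 in control fronds. The same ratio was 0.142 to 0.203 in no-phosphate roots and 0.0637 to 0.131 in control roots.

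REVEILLE 1, which in Arabidopsis is a Myb-like factor related to LHY that links the clock to auxin, was represented by Sp09g00236 (chromosome 9, 1036436 to 1040482). It had 163, 104, 82.5 and 71.6 FPKM in no-phosphate fronds, against 45.2, 47.4, 49.6 and 36.0 FPKM in control fronds. Every no-phosphate frond library was above every control, and the log2 change was 1.16 ± 0.28 (SE), the largest difference upwards among the 10 genes. In roots it had 22.4, 44.1, 31.5 and 54.1 FPKM without phosphate, against 34.3, 21.7, 17.3 and 22.3 FPKM in controls. The root groups overlapped, with a log2 change of 0.62 ± 0.28 (SE).

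Among the genes that act later in the day, GIGANTEA was annotated as a pair of models, Sp05g00030 (chromosome 5, 108420 to 116756) and Sp05g00031 (chromosome 5, 116908 to 117198). They lie on the same strand with 151 bases between them and share the rice GIGANTEA homolog. They may share their source and are not treated as independent. Sp05g00030 had 34.4, 38.1, 37.9 and 42.9 FPKM in no-phosphate fronds, against 67.7, 86.7, 60.6 and 91.4 FPKM in control fronds. The groups were separate, with means of 38.3 ± 3.46 FPKM without phosphate and 76.6 ± 14.8 FPKM in controls (SD, n = 4 each) and a log2 change of -0.96 ± 0.25 (SE). In roots it had 36.6, 21.6, 26.9 and 23.9 FPKM without phosphate, against 53.4, 43.7, 117 and 45.6 FPKM in controls. These groups were separate too, and the log2 change of -1.12 ± 0.25 (SE) moved to -0.80 ± 0.17 (SE) without control root library 3, the library at 117 FPKM.

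The short model Sp05g00031, 291 bases long, rested on 16 to 69 reads a library. It was lower in no-phosphate fronds (10.3 to 12.2 FPKM) than in control fronds (18.0 to 29.7 FPKM), and lower in no-phosphate roots (7.51 to 14.0 FPKM) than in control roots (14.7 to 28.4 FPKM). Its log2 changes were -1.14 ± 0.22 and -0.85 ± 0.22 (SE) in fronds and in roots. The groups of either tissue did not overlap.

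The pseudo-response regulators were lower without phosphate in fronds, to unlike degrees. Sp20g00272 (chromosome 20, 1587583 to 1592572), a PRR95 homolog with both a response regulator receiver domain and a CCT motif, differed most of the 10 genes. It had 1.73, 2.66, 3.93 and 5.29 FPKM in no-phosphate fronds, against 11.6, 21.6, 19.2 and 36.7 FPKM in control fronds, and the low values rested on 21 to 92 reads a library. The frond groups were far apart, with a log2 change of -2.36 ± 0.51 (SE). In roots it had 2.41, 0.934, 1.86 and 2.33 FPKM without phosphate, against 4.04, 5.66, 37.3 and 5.86 FPKM in controls. The groups were separate, but control library 3 carried the root control mean, which was 13.2 FPKM with it and 5.19 FPKM without it. The root log2 change was -1.78 ± 0.51 (SE) with that library and -1.12 ± 0.34 (SE) without it.

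Sp14g00466 (chromosome 14, 2450026 to 2454797), another PRR95 homolog, differed less. It had 13.2 to 23.2 FPKM in no-phosphate fronds and 25.5 to 30.8 FPKM in control fronds, without overlap and with a log2 change of -0.64 ± 0.20 (SE). Its root libraries overlapped, at 14.0 to 21.4 FPKM without phosphate and 16.9 to 32.0 FPKM in controls. Sp10g00993 (chromosome 10, 7341538 to 7351771), closest to rice PRR73, had 42.0, 46.0, 46.5 and 49.9 FPKM in no-phosphate fronds and 64.9, 67.2, 63.6 and 75.7 FPKM in control fronds. These were separate, with a log2 change of -0.55 ± 0.15 (SE), and its root libraries overlapped at 38.9 to 65.0 FPKM without phosphate and 51.4 to 80.6 FPKM in controls. Neither of these models carries a CCT motif in the table.

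The ELF4-type genes encode small proteins with an Early Flowering 4 domain, and Arabidopsis ELF4 acts in the evening complex. Sp18g00141 (chromosome 18, 721889 to 722227), closest to ELF4-LIKE 3, had 28.9, 38.8, 36.0 and 39.0 FPKM in no-phosphate fronds, against 60.2, 74.0, 47.9 and 63.0 FPKM in control fronds. The control fronds alone were high: root libraries ran from 33.9 to 36.5 FPKM without phosphate and from 31.2 to 36.8 FPKM in controls. The log2 change was -0.76 ± 0.12 (SE) in fronds and 0.06 ± 0.12 (SE) in roots. The root response minus the frond response was 0.82 ± 0.17 (SE), the largest such difference of the 10 genes in size. Sp04g01468 (chromosome 4, 9120729 to 9121037), closest to ELF4-LIKE 4, overlapped between media in both tissues. Its levels were 32.4 to 53.8 FPKM in no-phosphate fronds, 39.0 to 56.5 FPKM in control fronds, 13.7 to 29.6 FPKM in no-phosphate roots and 12.5 to 21.8 FPKM in control roots.

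**Figure D2:**
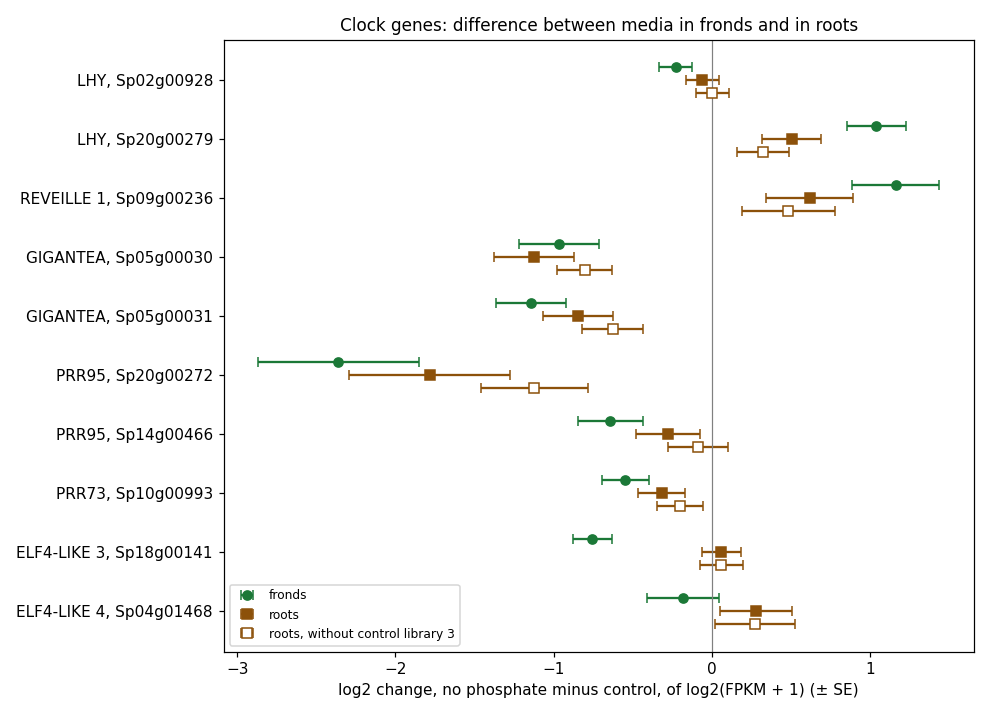
Log2 change (no phosphate minus control, of log2(FPKM + 1)) with its SE for each clock gene in fronds, in roots, and in roots without control library 3. PRR95 Sp20g00272 has the largest differences, -2.36 in fronds and -1.78 in roots, and ELF4-LIKE 3 differs in fronds (-0.76) but lies near 0 in roots (0.06).

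In roots as a whole, limma called 0 of the 10 genes, where 0.422% of all tested genes passed. At an unadjusted p under 0.05 there were 6 of the 10, where 16.3% of all tested genes passed. Voom on reads recovered from the FPKM values called 1 of the 10 and 87 genes in all. Limma called 1 of the 10 among 791 genes without no-phosphate root library 5, and 1 among 346 without control root library 1. Nothing is read from these counts either. The libraries of the root groups did not overlap for 1 gene upwards and 3 downwards, beside 5.33% of all tested genes (3.45% upwards and 1.89% downwards). Leaving out control library 3 cannot make these 4 genes overlap, and the others of the 10 still overlapped without it. Both tissues had the same sign for 8 of the 10 genes, the exceptions being the ELF4-LIKE homologs. The share over all tested genes is not given here. Since the choice of the genes used these levels, nothing is read from this count. The root sign of LHY Sp02g00928 turned without control library 3 (0.004 against -0.06). No gene of the 16598 passed limma's test of the difference between the root and the frond response (0%). At an unadjusted p under 0.05 there were 1843 of them (11.1%), 1 of the 10 clock genes among these, and voom called 2 genes, of which 0 were among the 10. Without no-phosphate root library 6 limma called 116 genes, again with 0 of the 10. The called frond genes and the uncalled root genes are thus not shown to differ in response.

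Control root library 3 stood apart in several clock genes. Its 37.3 FPKM of PRR95 Sp20g00272 compared with 4.04 to 5.86 FPKM in the other control roots, its 117 FPKM of GIGANTEA Sp05g00030 with 43.7 to 53.4 FPKM, and its 56.4 FPKM of LHY Sp20g00279 with 91.2 to 96.9 FPKM. It also had the highest summed level of the 16 frond markers among the control roots (21924 FPKM, range 14795 to 21924 FPKM), where control fronds had 43626 to 47631 FPKM. For each of these 3 genes its level lay beyond all 4 control frond libraries, which ran from 11.6 to 36.7, from 60.6 to 91.4 and from 74.1 to 109 FPKM. Frond library 3, which carries the same number, was the lowest control frond for GIGANTEA and was neither highest nor lowest for PRR95 and LHY Sp20g00279. Over all tested genes, library 3 stood apart from the other control roots in 2.19%, against 0.892% to 2.54% for the other 15 libraries in their groups.

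Ratios between clock genes within 1 library do not depend on the scaling between libraries. They were formed after the values had been seen and carry no test. LHY Sp20g00279 over GIGANTEA Sp05g00030 was 3.80 to 7.18 in no-phosphate fronds and 0.811 to 1.64 in control fronds. In roots it was 3.12 to 6.32 without phosphate and 0.482 to 2.22 in controls. All 8 no-phosphate libraries thus lay above all 8 controls, in either tissue. REVEILLE 1 over PRR95 Sp20g00272 was 13.5 to 94.3 in no-phosphate fronds and 0.979 to 3.91 in control fronds, and 9.28 to 47.2 in no-phosphate roots and 0.462 to 8.50 in control roots. Here too the 8 no-phosphate libraries lay above the 8 controls. In contrast, REVEILLE 1 over LHY Sp20g00279, both higher without phosphate, overlapped between media at 0.440 to 0.660 in no-phosphate fronds and 0.414 to 0.50 in control fronds.

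**Figure D3:**
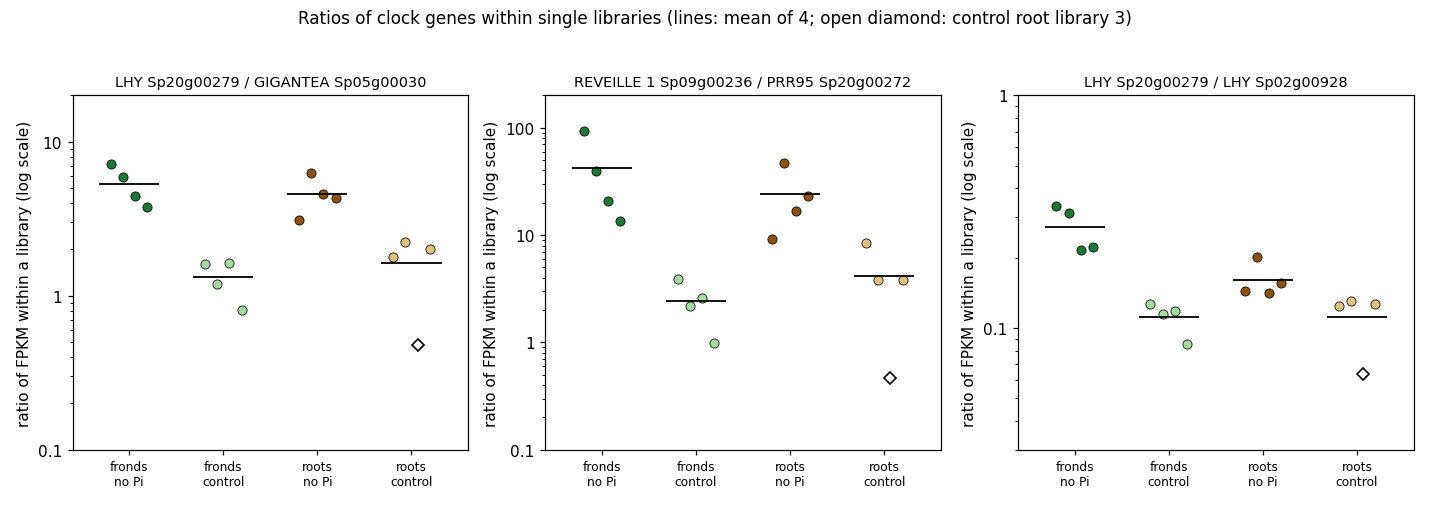
Ratios of FPKM within each library (log axes) of LHY Sp20g00279 to GIGANTEA, of REVEILLE 1 to PRR95 Sp20g00272, and of the LHY homologs to each other, by tissue and medium, with group means as lines. In each panel all 8 no-phosphate points lie above all 8 control points, and control root library 3 (open diamond) is lowest at 0.482, 0.462 and 0.0637.

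In the no-phosphate fronds, some of the clock genes ranked the libraries in the same order or its reverse. Ranked from high to low, LHY Sp20g00279 and REVEILLE 1 both gave libraries 5, 6, 7 and 8, and PRR95 Sp20g00272 and PRR73 gave the reverse. The other clock genes gave neither order. GIGANTEA Sp05g00030 and ELF4-LIKE 3 gave libraries 8, 6, 7 and 5, and PRR95 Sp14g00466 gave 5, 8, 6 and 7. The ratio of LHY Sp20g00279 to GIGANTEA Sp05g00030 ran over 7.18, 5.89, 4.43 and 3.80 in libraries 5 to 8. In control fronds, library 4 was highest for GIGANTEA, both PRR95 homologs and PRR73 and lowest for LHY Sp20g00279 and REVEILLE 1. In no-phosphate roots, library 6 was highest for LHY Sp20g00279 and lowest for GIGANTEA Sp05g00030, both PRR95 homologs, PRR73 and ELF4-LIKE 3. These ranks are descriptions of 4 libraries each. Depth of no-phosphate frond libraries 5 to 8 rose in that order, at 6325297, 8467009, 8682664 and 8972466 reads. The part of depth in these ranks was not tested, and the share of all tested genes with such an order is not given.

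LHY Sp20g00279 and PRR95 Sp20g00272, which differed in opposite directions, are neighbours on chromosome 20. Both lie on the plus strand, 16536 bases apart with 6 gene models between them. The remaining genes, the GIGANTEA pair apart, lie on separate chromosomes.

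In control medium, roots were lower than fronds without overlap for REVEILLE 1, ELF4-LIKE 3 and ELF4-LIKE 4, with log2 changes of -0.90 ± 0.28, -0.82 ± 0.12 and -1.36 ± 0.23 (SE). The libraries of 54.7% of all tested genes did not overlap in this comparison, and those of 28.2% were lower in roots. By limma 4 of the 10 genes were under the threshold, all lower in roots, where 59.8% of all tested genes passed and 31% passed downwards. That count was 7 without control root library 3 and 2 under an equal FPKM total or by voom. Without phosphate, LHY Sp20g00279 (-0.73 ± 0.19), REVEILLE 1 (-1.45 ± 0.28) and ELF4-LIKE 4 (-0.90 ± 0.23, all SE) were lower in roots than in fronds without overlap, beside 59.6% of all tested genes without overlap and 31.3% lower. By limma 3 of the 10 were under the threshold, all lower in roots, where 67.6% of all tested genes passed and 35% passed downwards. Voom called 5 of the 10, not all lower in roots. Under it LHY Sp02g00928 (0.24 ± 0.09) and PRR73 (0.36 ± 0.14, both SE) were higher in roots. The choice of the genes used these levels, so nothing is read from the tissue counts. ELF4-LIKE 3 lay within its error of 0 without phosphate (0.00 ± 0.12, SE).

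Tissue differences depend on how fronds and roots are scaled. When every library was instead brought to an equal FPKM total, the median root minus frond change of all genes moved to 0.22 in control medium, against -0.02 as deposited, and to 0.23 without phosphate. REVEILLE 1, ELF4-LIKE 3 and ELF4-LIKE 4 in control medium kept their sign under it, at -0.63 ± 0.29, -0.54 ± 0.12 and -1.09 ± 0.23 (SE). LHY Sp20g00279, REVEILLE 1 and ELF4-LIKE 4 without phosphate did so too, at -0.44 ± 0.20, -1.17 ± 0.29 and -0.62 ± 0.23 (SE). All of these were smaller in size than as deposited. The lack of overlap given for them is that of the FPKM as deposited and need not hold under an equal total. In control medium LHY Sp02g00928, LHY Sp20g00279 and PRR73 turned from -0.16, -0.20 and -0.10 to 0.12, 0.08 and 0.18, so no tissue direction is given for them there. In no-phosphate medium GIGANTEA Sp05g00031 turned from -0.24 to 0.02, and ELF4-LIKE 3 from 0.00 to 0.28. LHY Sp02g00928 and PRR73 moved there from 0.01 and 0.13 to 0.30 ± 0.10 and 0.41 ± 0.14 (SE), higher in roots.

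The order of the 4 groups by mean level, as deposited, fell into a few kinds. For GIGANTEA and PRR95 Sp20g00272 it ran from control fronds over control roots and no-phosphate fronds to no-phosphate roots. Under an equal FPKM total the no-phosphate tissues of Sp05g00031 change places. The control tissues of Sp05g00030 are not ordered under it, with a root minus frond log2 change of -0.06 ± 0.24 (SE). For the GIGANTEA models only control roots and no-phosphate fronds, neighbours in the order as deposited, were separate, and for PRR95 Sp20g00272 no neighbours were. PRR95 Sp14g00466 was highest in control fronds and lowest in no-phosphate fronds, with overlap between all neighbours. PRR73 and LHY Sp02g00928 were also lowest in no-phosphate fronds with all neighbours overlapping, and their control roots and control fronds are not ordered. LHY Sp20g00279 and REVEILLE 1 were highest in no-phosphate fronds, separate from the next group, with overlap below. ELF4-LIKE 3 had control fronds separate above the other 3 groups, and ELF4-LIKE 4 had both frond groups above both root groups, with frond and root separate. These separations between tissues are those of the FPKM as deposited and need not hold under an equal total.

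The rest of the clock pathway was collected by keyword from the homolog names and domains, which gave 65 further models, of which 63 were tested. In fronds 3 rose and 6 fell without phosphate, beside 2.11% and 2.30% of all tested genes called higher and lower, and 54 did not pass. Their median log2 change was 0.01, the same as over all tested genes. In roots 0 rose, 1 fell and 62 did not pass, beside 0.355% and 0.0663%. At an unadjusted p under 0.05 there were 16 of the 63 in roots, where 16.3% of all tested genes passed, and voom on recovered reads called 1. For the difference between root and frond responses limma called 0 of 63, with 5 at an unadjusted p under 0.05 (11.1% of all tested genes) and 0 by voom, and 1 by limma without no-phosphate root library 6. The frond count of 9 became 2 without no-phosphate frond library 5 or 6 or without control frond library 2 or 4, 3 without control frond library 1 and 5 without no-phosphate frond library 7.

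Of the 8 further models taken in as core oscillator genes, 1 passed in fronds. Sp04g00261 (chromosome 4, 1233578 to 1238841), another PRR95 homolog with a receiver domain and a CCT motif, had 6.16, 6.28, 7.18 and 6.03 FPKM in no-phosphate fronds, against 11.0, 16.8, 12.5 and 19.0 FPKM in control fronds. It fell without overlap, with a log2 change of -1.07 ± 0.25 (SE; limma adjusted p = 0.0282). Over 24 alternatives that p ran from 0.00202 to 0.0989, and the call was lost without frond library 5, 6 or 8 of the no-phosphate group or 2 or 4 of the controls. In roots it had 8.03, 5.55, 6.99 and 5.73 FPKM without phosphate, against 8.72, 9.27, 23.9 and 9.26 FPKM in controls. The root change of -0.75 ± 0.25 (SE) did not pass (limma adjusted p = 0.156), and control library 3 was again the high one.

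REVEILLE 8, an activator of evening genes in Arabidopsis, was low throughout (Sp06g00143). It had 1.85 to 2.23 FPKM in no-phosphate fronds and 3.86 to 6.08 FPKM in control fronds, a log2 change of -0.88 ± 0.25 (SE; limma adjusted p = 0.053) that did not pass. REVEILLE 6 (Sp11g00395), of the same subgroup, had 96.1 to 104 FPKM in no-phosphate fronds and 74.8 to 84.3 FPKM in control fronds, with 0.30 ± 0.10 (SE; limma adjusted p = 0.0894). The ELF3-like proteins, homologs of the scaffold of the evening complex, did not pass either. Sp05g00199 had a frond log2 change of 0.39 ± 0.26 and Sp08g00962 one of -0.30 ± 0.13 (SE). Sp03g01131, known only by its Early Flowering 4 domain, had 2.62 to 5.91 FPKM in no-phosphate fronds and 2.11 to 5.21 FPKM in control fronds. APRR2 (Sp11g00299) and a CCA tRNA nucleotidyltransferase (Sp11g00366) came in by name alone and did not pass. The enzyme acts on tRNA and not in the clock.

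Of the 9 tested clock-associated regulators, 0 rose and 1 fell in fronds. LWD1 (Sp07g00195), a WD-repeat protein that in Arabidopsis promotes expression of the LHY relative CCA1, fell to 67.1 ± 7.15 FPKM in no-phosphate fronds, against 88.4 ± 5.89 FPKM in control fronds (SD, n = 4 each; limma adjusted p = 0.0375). That call held in 17 of 24 alternatives. LNK2 (Sp10g00664), a partner of REVEILLE 8 in Arabidopsis, had 195 to 227 FPKM in no-phosphate fronds and 165 to 187 FPKM in control fronds, and did not pass (limma adjusted p = 0.135). Adagio protein 1 (Sp12g00813), a homolog of the blue-light receptor ZEITLUPE that targets clock proteins for breakdown, had a frond log2 change of -0.24 ± 0.13 (SE) and did not pass. The 1 clock-related gene that fell in roots was TIME FOR COFFEE (Sp01g00268), a nuclear clock regulator, with 13.9 to 19.1 FPKM in no-phosphate roots and 20.4 to 24.2 FPKM in control roots. Its call at a limma adjusted p of 0.0465 held in 7 of 24 alternatives, whose p ran from 0.004 to 0.315, and was lost without any 1 of the frond libraries, no-phosphate root library 7 or 8 or control root library 2, 3 or 4.

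Of 27 light input genes, 3 rose and 2 fell in fronds. SPA1-RELATED 3 (Sp13g00431), from a family of COP1 partners that repress light signalling, had 182, 186, 202 and 191 FPKM in no-phosphate fronds, against 123, 139.7, 133 and 137 FPKM in control fronds. It rose without overlap, with a log2 change of 0.51 ± 0.09 (SE; limma adjusted p = 0.00896). Its neighbour SPA1-RELATED 4 (Sp13g00430) rose with a log2 change of 0.42 ± 0.11 (SE; limma adjusted p = 0.0421), a call that held in 11 of 24 alternatives. The longer model Sp13g00429, also closest to SPA1-RELATED 4, did not pass (0.22 ± 0.11, SE; limma adjusted p = 0.249). The remaining gene that rose was a cryptochrome DASH homolog (Sp12g00871). It and Sp13g00429 lie outside the naming rule and are named after their values were seen. The cryptochrome DASH homolog averaged 52.9 FPKM in no-phosphate fronds and 37.9 FPKM in control fronds (limma adjusted p = 0.0472), and its call held in 8 of 24 alternatives. The cryptochrome models Sp02g00054 and Sp02g00055, adjacent on chromosome 2 and named for the blue-light receptors CRY2 and CRY1, both fell. Their log2 changes were -0.64 ± 0.16 and -0.60 ± 0.15 (SE; limma adjusted p = 0.0329 and 0.038), called in 19 and 18 of 24 alternatives. Whether these neighbouring cryptochrome models, or the SPA1-RELATED models above, are pieces of 1 gene was not tested.

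Of 19 tested photoperiod genes, 0 rose and 2 fell in fronds. CONSTANS-LIKE 13 (Sp06g00423), of a zinc finger family that includes the flowering regulator CONSTANS, had 11.9, 13.2, 12.2 and 10.8 FPKM in no-phosphate fronds, against 24.0, 28, 21.8 and 20.4 FPKM in control fronds. It fell without overlap, with a log2 change of -0.91 ± 0.15 (SE; limma adjusted p = 0.00581). Its call and that of SPA1-RELATED 3 held in all 24 alternatives. A cyclic dof factor 2 homolog (Sp06g00287), whose Arabidopsis family represses CONSTANS and is removed with the help of GIGANTEA, fell with a log2 change of -0.71 ± 0.18 (SE; limma adjusted p = 0.0339), a call that held in 16 of 24 alternatives and was lost without any 1 frond library. CONSTANS-LIKE 5 (Sp06g01151) had 763, 899.8, 966 and 1031 FPKM in no-phosphate fronds, against 1319, 1427, 1514 and 1648 FPKM in control fronds. The groups did not overlap, yet the change of -0.69 ± 0.20 (SE) did not pass (limma adjusted p = 0.0635). CONSTANS-LIKE 9 (Sp12g00391) differed upwards by 1.11 ± 0.34 (SE) and did not pass (limma adjusted p = 0.0722).

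**Figure D4:**
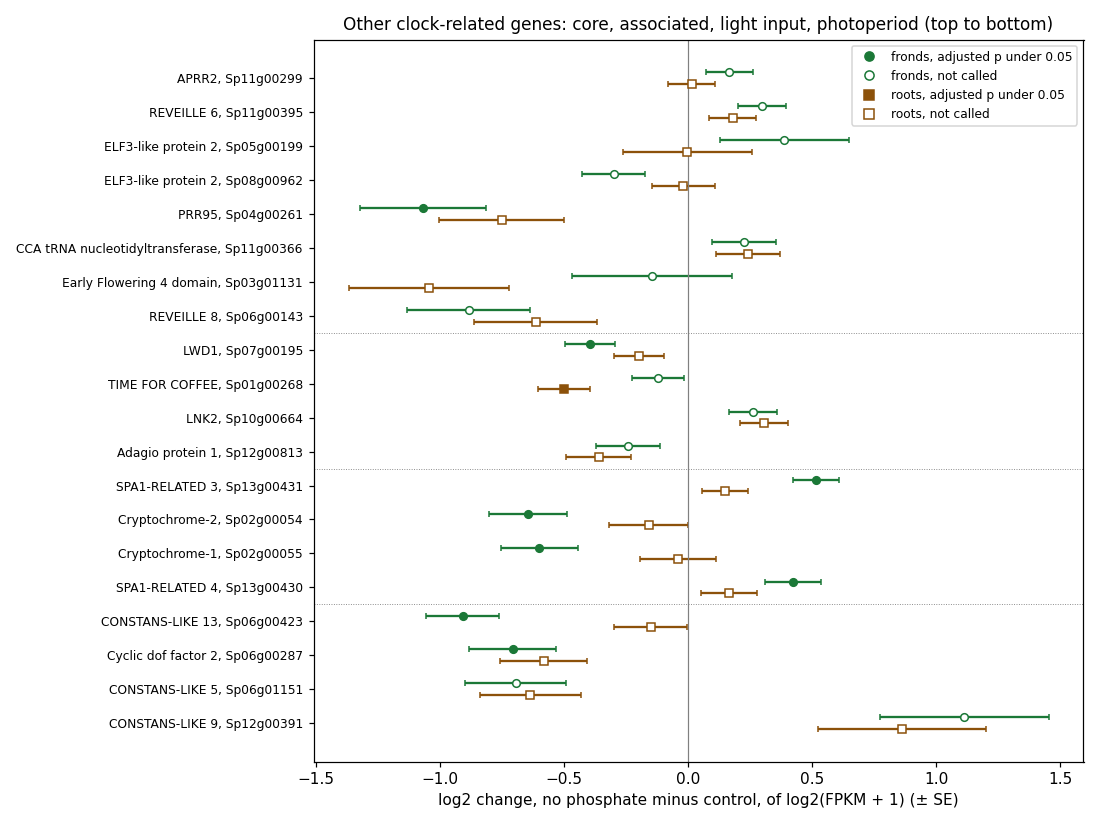
Log2 change (no phosphate minus control, of log2(FPKM + 1)) with its SE for 20 other clock-related genes in fronds and roots, filled where limma's adjusted p was under 0.05. The filled frond points include PRR95 Sp04g00261 at -1.07 and CONSTANS-LIKE 13 at -0.91 on the left and SPA1-RELATED 3 at 0.51 on the right.

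The genes most like 2 of the clock genes were found over the 16 libraries after each tissue's mean was subtracted, among 8920 other genes with a homolog name and at least 5 FPKM. Pearson's r serves here as a rank of likeness without a p, and the libraries share their 2 media. Most like GIGANTEA Sp05g00030 were the hydrolase tropI homolog Sp04g00300 (r = 0.96), a bifunctional aspartokinase (Sp08g00740, r = 0.958), PRR95 Sp04g00261 (r = 0.953), a phosphoribosylformylglycinamidine synthase (Sp14g00785, r = 0.952) and a YCED homolog (Sp14g00276, r = 0.949). Most unlike it were an HIPL1 protein (Sp03g00796, r = -0.957), riboflavin biosynthesis protein RIBA 1 (Sp12g00135, r = -0.956) and the phosphatase Sgpp (Sp11g00311, r = -0.955). NADP-dependent glyceraldehyde-3-phosphate dehydrogenase (Sp12g00673, r = -0.951) and the ultraviolet-B receptor UVR8 (Sp04g00351, r = -0.950) followed. Without the 2 libraries farthest from the median of GIGANTEA, control root 3 and no-phosphate root 6, these 10 values kept their sign and a size of at least 0.904.

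Most like LHY Sp02g00928 were bHLH130 (Sp05g00836, r = 0.914), mechanosensitive channel protein 2 (Sp01g00029, r = 0.913) and root phototropism protein 2 (Sp01g01277, r = 0.902). Oxygen-evolving enhancer protein 1 (Sp01g00437, r = 0.898) and the chaperone ClpD1 (Sp10g00018, r = 0.893) followed. Most unlike it were ribosomal proteins L23 (Sp14g00098, r = -0.891) and S15a (Sp01g01319, r = -0.871), RCC2 (Sp20g00210, r = -0.877), an ADP,ATP carrier (Sp11g00743, r = -0.869) and RNA-binding protein 39 (Sp14g00426, r = -0.860). These 10 values kept their sign without control root library 3 and no-phosphate root library 7.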

How the data were processed

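Per the labels, poly-A RNA of the 16 pooled samples was sequenced as 150 bp read pairs. The submitters' processing notes name HISAT2 2.0.5 and featureCounts 1.5.0-p3, with the genome build, annotation version and strand setting not given in the sources used here. The deposited table holds FPKM values per gene made by the authors, already scaled so that median-of-ratios factors between libraries were 0.999885 to 1.0001. Its steps gave whole reads for 100% of values (tolerance 0.001 reads), and 3 reads on a gene of 1 kb were worth 0.213 to 0.507 FPKM, a limit of counting only. Column numbers name libraries and do not show which labelled replicate each was. The labels call the samples biological replicates, 1 flask each, and no pair of libraries of a group agreed within sampling noise.

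Log2(FPKM + 1) of genes with a mean of 0.5 FPKM or more was fitted with limma 3.58.1 and statmod 1.5.0 in R 4.3.3, with 1 mean per group, a trended and robust prior, 12 residual degrees of freedom, two-sided tests and Benjamini-Hochberg adjustment over 16598 genes. The fit was tested on simulated data. Alternatives changed the pseudocount (0.1), the filter, the scaling, the prior and the libraries used, or fitted voom to the recovered reads. The 10 genes and the keyword lists were chosen with earlier results of these data known. Other genes named are every tested core oscillator model, up to 4 with the smallest adjusted p of each other list, and the 5 most and least like GIGANTEA and LHY. Light input genes named outside this rule are marked as such. Same-numbered frond and root libraries were not taken as pairs, since their deviations correlated at -0.116 to 0.147, over 0.1 in 2 of 8. Sequences of the genes are not used here.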

Additional observations from a re-analysis of the deposited data

Results flagged for a closer look

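Within groups of 4 libraries, the highest or lowest value stood far from the other 3 in 8 of 120 groups looked at (40 of them groups of the 10 clock genes, with 5 of the 8), where chance alone gives about 1 in 20. Over all tested genes, control root library 3 stood apart in 2.19% and each of the other 15 libraries in 0.892% to 2.54%. The 10 genes were chosen with their single-library values known, and clock genes share libraries, so nothing is read from these counts. In 6 of the 8 the library was control root library 3. It had 37.3 FPKM of PRR95 Sp20g00272 (the others 4.04 to 5.86), 117 FPKM of GIGANTEA Sp05g00030 (43.7 to 53.4) and 28.4 FPKM of GIGANTEA Sp05g00031 (14.7 to 15.1). It had 56.4 FPKM of LHY Sp20g00279 (91.2 to 96.9), 23.9 FPKM of PRR95 Sp04g00261 (8.72 to 9.27) and 47.2 FPKM of Adagio protein 1 Sp12g00813 (32.5 to 34.9). Its summed frond markers, 21924 FPKM, were the highest of the control roots, and their part in these values was not tested.

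Control frond library 3 was low for GIGANTEA Sp05g00031, at 18.0 FPKM against 28.7 to 29.7 FPKM, a model with 36 to 69 reads in the control fronds. No-phosphate frond library 7 was low for the tRNA nucleotidyltransferase Sp11g00366, at 9.31 FPKM against 11.2 to 11.4 FPKM. For no clock gene named here did the root and frond responses differ by limma's adjusted test.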

How the results depend on the processing

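The log2 changes of the 10 clock genes kept their sign between media under every alternative run, except LHY Sp02g00928 in roots (0.004 without control root library 3). Counts called moved more. With fronds fitted alone, 1811 genes and 19 other clock-related genes passed in fronds (732 and 9 in the fit of all libraries), and with roots alone 0 genes and 0 clock-related genes passed in roots (70 and 1). Without control root library 3 and no-phosphate root library 5, a choice made after seeing the data, the counts were 1149 and 15 in fronds and 349, 2 and, of the 10 genes, 1 in roots, and 7 of the 10 differed between control tissues. Under the same FPKM sum 25 genes passed in roots and under an ordinary prior 40, each with 0 clock-related genes, as with no filter. Voom called 1 of the 10 in roots, 2 between control tissues (2 under the same sum) and 5, of both directions, between no-phosphate tissues.

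For the difference in response, the same sum and voom called 2 genes each, and the fit with the replicate block (frond and root libraries of 1 number) called 2, with 9700 and 11002 genes between tissues in control and no-phosphate medium. The media share no flask, so their contrasts took no block. The frond split of 351 higher and 381 lower became 240 and 587 under the same sum and 238 and 595 under voom. That between control tissues, 4785 higher and 5144 lower in roots, became 6642 and 3789 under the same sum, and that between no-phosphate tissues, 5415 and 5802, became 7027 and 4519.

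Leaving out 1 library at a time gave, in fronds, 154 to 972 genes, 2 to 12 clock-related genes and 3 to 8 of the 10. In roots it gave 0 to 791, 0 to 1 and 0 to 1, and for the difference in response 0 to 116, 0 to 1 and 0. Between control tissues 3 to 7 of the 10 passed. Depth limits the short GIGANTEA model (16 to 69 reads) and PRR95 Sp20g00272 without phosphate (21 to 92 reads in fronds). It also limits ELF4-LIKE 4 (29 to 128 reads) and ELF4-LIKE 3 (58 to 189 reads).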
